A study of Mus musculus with 4 samples.

Results

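The 9 genes described here are some of the genes of the insulin-like growth factor (IGF) system, measured in mouse glomeruli. They are the ligand Igf1, the receptors Igf1r and Igf2r, and the binding proteins Igfbp2, Igfbp3, Igfbp4, Igfbp5, Igfbp6 and Igfbp7. They were chosen by symbol, and each matched a single gene of the 52636 gene IDs counted. Untreated young and aged mice were compared, with 2 single-cell libraries for each age, and the series names ageing and senescence of glomerular cells as its theme. Magnetic beads perfused through the heart lodged in the glomeruli, the filtering tufts of the kidney, which were then digested to single cells and sequenced from the 3' end of the transcripts. The labels give no age in months, sex, strain, genotype or number of mice per library. They do not say whether the libraries of a group came from separate mice, so p-values measure the spread between these libraries, which may be technical.

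IGF1 is a growth factor made in the liver under growth hormone control and locally in many tissues. It signals through the receptor tyrosine kinase IGF1R to PI3 kinase, AKT and mTOR, while IGF2R, the mannose 6-phosphate receptor, binds IGF2 and delivers it to lysosomes and does not signal as a kinase. The binding proteins hold IGFs in the extracellular space, prolong or block their access to the receptor, and release them when proteases cut the binding protein. IGFBP7 binds IGFs only weakly and is known as a matrix-associated secreted protein, and several members of the family are counted among the secreted factors of senescent cells.

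Igfbp2 and Igfbp5 are neighbours. In GENCODE vM21 on GRCm38, Igfbp2 lies on the plus strand of chromosome 1 from 72824503 to 72852474 and Igfbp5 on the minus strand from 72857932 to 72874884, with their 3' ends 5458 bases apart. Igfbp6 lies on the plus strand of chromosome 15 from 102144362 to 102149511. The promoters of these 3 genes are shown because the genes passed the main test of age in cluster 15, a small cell cluster described below. There the neighbours Igfbp2 and Igfbp5 moved in opposite directions, on few cells. Both of their calls were lost with DESeq2 and with cells named one by one. Each window runs from 250 bases before to 50 bases after the RefSeq start on GRCm38.p6, 5' to 3' on the gene's strand. It lies at chr1:72824230-72824529 (plus) for Igfbp2, at chr1:72874816-72875115 (minus) for Igfbp5 and at chr15:102143936-102144235 (plus) for Igfbp6. The Igfbp6 window ends before the GENCODE start at 102144362, so the RefSeq and GENCODE starts of that gene differ. Igfbp2 had 2 such windows, and the one nearest its GENCODE start is shown. Capitals mark matches on either strand to GGGCGG (the GC box), TATAAA (the TATA box), GTAAACA (the forkhead motif) or CACGTG (the E-box).
Igfbp2: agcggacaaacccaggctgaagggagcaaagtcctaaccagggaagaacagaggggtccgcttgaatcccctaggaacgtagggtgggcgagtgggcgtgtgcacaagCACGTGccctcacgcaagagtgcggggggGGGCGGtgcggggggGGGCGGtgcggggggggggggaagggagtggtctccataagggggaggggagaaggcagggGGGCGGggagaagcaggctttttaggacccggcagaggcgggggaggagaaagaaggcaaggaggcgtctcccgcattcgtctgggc
Igfbp5: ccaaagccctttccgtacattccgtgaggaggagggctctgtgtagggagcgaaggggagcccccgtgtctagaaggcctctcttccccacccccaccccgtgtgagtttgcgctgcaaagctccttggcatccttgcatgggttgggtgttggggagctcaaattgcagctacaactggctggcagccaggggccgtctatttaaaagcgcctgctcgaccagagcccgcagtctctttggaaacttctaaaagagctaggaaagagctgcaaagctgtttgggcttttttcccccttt
Igfbp6: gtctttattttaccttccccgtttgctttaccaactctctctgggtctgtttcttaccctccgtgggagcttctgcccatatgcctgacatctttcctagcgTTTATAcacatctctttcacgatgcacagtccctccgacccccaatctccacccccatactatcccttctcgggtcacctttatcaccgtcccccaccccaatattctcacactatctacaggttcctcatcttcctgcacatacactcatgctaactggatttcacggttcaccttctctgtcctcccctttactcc
The Igfbp2 window held 3 copies of GGGCGG and 1 of CACGTG, the Igfbp6 window held 1 TATAAA on the reverse strand, and the Igfbp5 window held none of the 4 motifs. Of 32851 mouse promoter windows of the same 300 bases, 35.7% held GGGCGG, 13.6% TATAAA, 3.65% GTAAACA and 7.15% CACGTG, so these matches are a description of the letters. The other members lie elsewhere in GENCODE vM21. Igf1 is on chromosome 10 (87858265 to 87937042, plus), Igf1r on chromosome 7 (67952827 to 68233668, plus) and Igf2r on chromosome 17 (12682406 to 12769664, minus). Igfbp3 and Igfbp4 are on chromosome 11 (7206086 to 7213923, minus, and 99041244 to 99054392, plus), and Igfbp7 is on chromosome 5 (77349240 to 77408041, minus). Igf1, Igf2r and Igfbp7 are overlapped on the opposite strand by Igf1os, by Airn, and by Polr2b and Gm34648. Whether the counting used strand is not given in the sources used here, so their counts are uncertain by any reads of those partners.

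The 4 libraries held 33323 cell barcodes, and 28000 cells were kept. Each library had 18457791 to 42046542 unique molecular identifiers (UMIs), the tags that count single RNA molecules. Any pair of libraries shared 9 to 31 barcodes. Young replicate 2 stood apart: its kept cells had a median of 1258 UMIs, against 2715 to 3730 elsewhere, and 4167 of its 6976 cells fell in clusters carrying markers of several cell types, against 75 to 189 cells in the other libraries. Those mixed clusters were left out. Clusters were named from marker genes. They included podocyte-like cells (606 to 1769 per library), which wrap the capillaries, endothelial-like cells (1347 to 5805), mesangial-like cells (193 to 714), the pericytes of the tuft, and smooth muscle and renin-like cells (36 to 73) of the arterioles. They also included macrophage-like cells, with 3 and 8 cells in young replicates 1 and 2 but 544 and 491 in aged replicates 1 and 2. These classes are called by their plain names from here on, and values are always given in that order of libraries. Cluster 15 had 33 and 90 young and 43 and 42 aged cells and scored highest for markers of parietal epithelium, which lines Bowman's capsule. These are the numbers left after single cells with mixed markers were taken out. Before that step the counts by library were 35, 110, 54 and 67. The loss was thus unequal, smallest in young replicate 1 and largest in aged replicate 2. Its top 10 genes included none of those markers but did include the smooth muscle marker Tagln, and Igfbp2 itself, so it is called by its number. Levels are given in CPM, the UMIs of a gene per 1000000 UMIs of the class in that library.

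With age, Igf1 and Igfbp5 fell in endothelial cells, Igf1r rose in mesangial cells, Igfbp6 fell in podocytes, and in cluster 15 Igfbp2 rose while Igfbp5 and Igfbp6 fell. UMIs were summed over the cells of a class in each library and tested with edgeR's quasi-likelihood test, and a gene was called at an adjusted p under 0.05 over all genes of the class. In endothelial cells 7 of the 9 genes passed the filter on low counts and 2 were called, both lower, where 6.6% of all genes tested were called (4.26% higher, 2.34% lower). In mesangial cells 6 were tested and 1 was called, higher, beside 6.17% of all genes (4.03% higher, 2.14% lower). In podocytes 6 were tested and 1 was called, lower, beside 6.15% of all genes (4.04% higher, 2.12% lower). In cluster 15, 5 were tested and 3 were called, 1 higher and 2 lower, beside 2.78% of all genes (1.49% higher, 1.3% lower). In smooth muscle and renin cells none of 3 was called by edgeR or DESeq2, beside 2.31% of all genes (1.47% higher, 0.838% lower), and 1 (Igfbp7) had an unadjusted p under 0.05 (0.00979). The median log2 change of the members tested was -0.41 in endothelial cells, 0.40 in mesangial cells, -0.04 in podocytes, -0.28 in cluster 15 and 0.29 in smooth muscle and renin cells, against medians between -0.01 and 0.00 over all genes tested. The filter removes genes with low counts in most libraries, so the members tested are not all members.

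**Figure D1:**
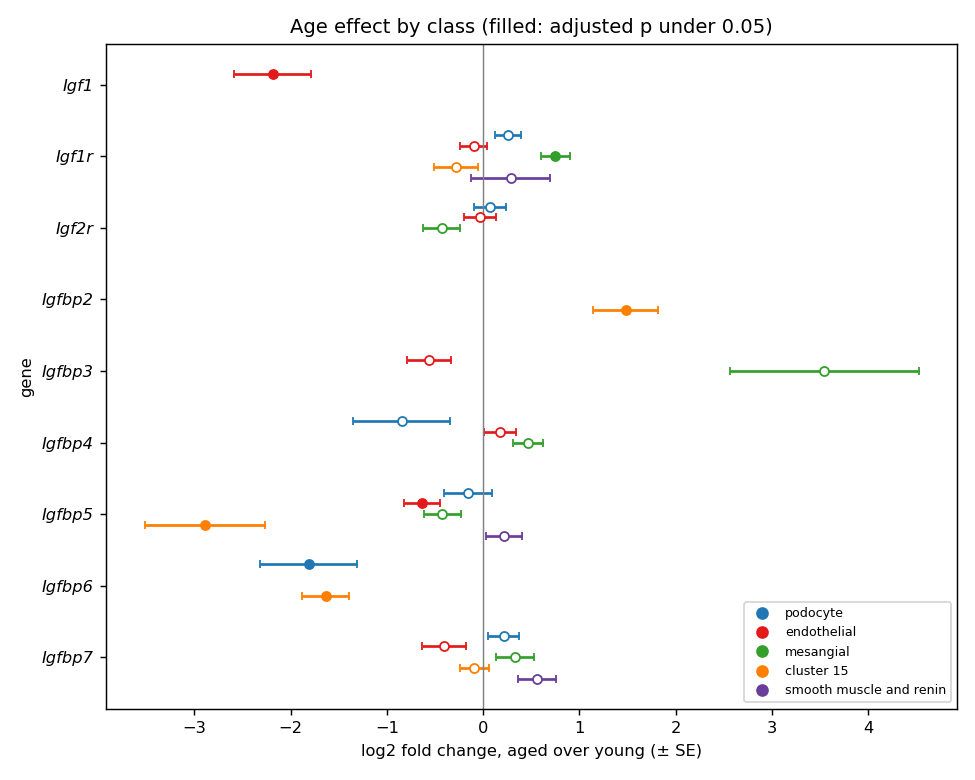
Log2 fold change of aged over young (x axis, points with ± SE bars from edgeR, 2 libraries per age) for each gene (y axis) and class (colour). Filled points passed an adjusted p under 0.05. The 7 filled points are Igf1 and Igfbp5 in endothelial cells, Igf1r in mesangial cells, Igfbp6 in podocytes, and Igfbp2, Igfbp5 and Igfbp6 in cluster 15.

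**Figure D2:**
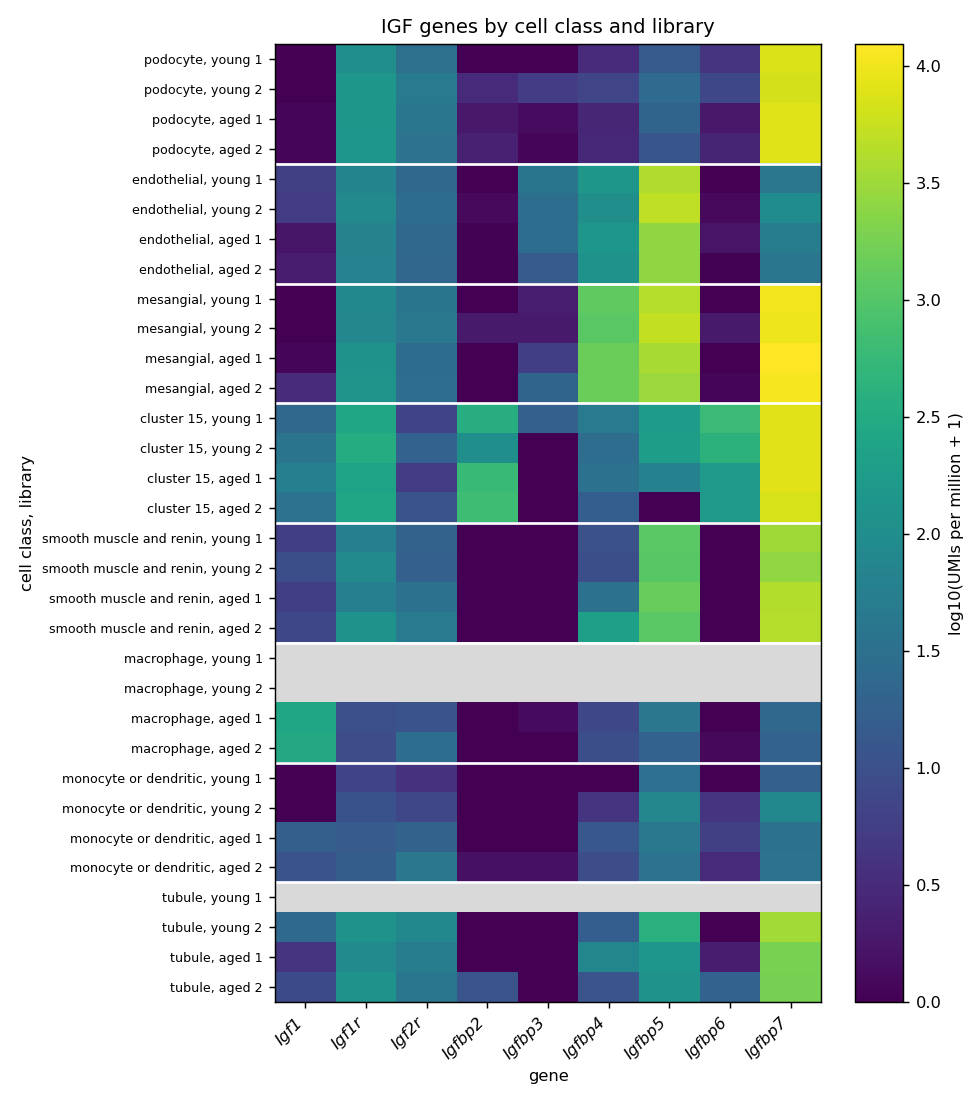
Level of the 9 genes (columns) as log10 of CPM plus 1 (colour) in each library of 8 classes (rows). Grey rows hold fewer than 20 cells. Igfbp2 and Igfbp6 are bright in cluster 15, Igf1 in the aged macrophages, and Igfbp7 in mesangial cells, podocytes, cluster 15 and smooth muscle and renin cells.

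In the aged libraries most of the ligand lay in macrophages. Igf1 was at 265 and 295 CPM in macrophages of the aged libraries, where 63.4% and 74.5% of macrophages had a UMI of it. When each cell was thinned to 1000 UMIs, these shares were 23.4% (exact 95% interval 19.9% to 27.1%) and 24.9% (21.1% to 28.9%), against 0.0528% and 0.102% of endothelial cells of the same libraries thinned alike. The 3 macrophages of young replicate 1 had no Igf1 UMI and the 8 of young replicate 2 had 8 UMIs, 87.5% of them in a single cell, so the level per macrophage could not be compared between ages. Cluster 15 had 23.0 and 36.8 CPM (young) against 57.1 and 34.7 (aged) on 4 to 14 UMIs each. Monocyte or dendritic cells had 0 and 0 (young) against 16.1 and 10.00 CPM (aged). A count of 0 there allows up to 8.38 and 9.58 CPM. Podocytes had 0, 0, 1 and 1 UMIs of Igf1 in their 4 sums, and mesangial cells 0, 0, 1 and 14, where the young counts of 0 allow up to 0.386 and 0.908 and up to 1.81 and 2.91 CPM.

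Over whole libraries, Igf1 stood at 2.34 and 3.89 CPM (young) against 27.8 and 42.0 (aged), with no overlap. Macrophages held 92.2% and 92.6% of the Igf1 UMIs of the aged libraries, against 0% and 12.7% of the young ones. Endothelial cells held 65.2%, 25.4%, 1.15% and 1.09% of the Igf1 UMIs of the 4 libraries. In a whole-library level more cells of a type and more RNA per cell cannot be told apart. Macrophages made up 0.0596% and 0.115% of young and 5.92% and 7.22% of aged kept cells.

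**Figure D3:**
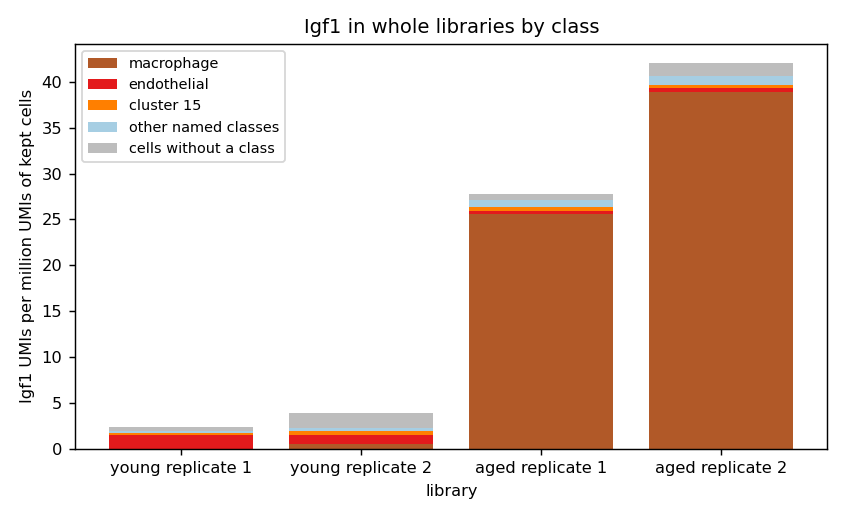
Igf1 in CPM over all kept cells (y axis) in each library (x axis), stacked by the class that held them. The aged bars reach 27.8 and 42.0 and are mostly macrophage, and the young bars reach 2.34 and 3.89.

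Endothelial Igf1 was at a far lower level and fell with age. It was at 4.87 and 4.28 CPM (young) against 0.711 and 1.15 (aged), on 30, 16, 11 and 17 UMIs. Both aged libraries lay below both young ones, and in aged replicate 2 a single cell held 41.2% of the UMIs. On the log2 scale the change was -2.19 ± 0.40 (SE), 4.55-fold lower in aged cells (edgeR adjusted p = 0.00122), and it was called under each of 11 other settings. Within the endothelial clusters both aged libraries lay below both young ones in 3 of 6 (clusters 0, 1 and 5) and overlapped in the others. In cluster 6 the young mean was 1.29 ± 1.82 CPM and the aged mean 3.74 ± 4.49 (SD, n = 2), and 10 of the 17 endothelial UMIs of aged replicate 2 lay there. The summed level of the 7 macrophage markers in endothelial cells was 2.27 and 7.75 CPM (young) against 16.7 and 19.8 (aged). Of the 7 markers, 3 and 7 were detected in the young sums and 7 in each aged sum (C1qb, C1qc, Adgre1 and Csf1r were at 0 in young replicate 1). The part of macrophage RNA in endothelial Igf1 was not tested.

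Of the receptors, Igf1r rose in mesangial cells. It was at 80.9 and 77.7 CPM (young) against 120 and 129 (aged), with no overlap. Its log2 change was 0.75 ± 0.15 (SE), 1.68-fold higher (edgeR adjusted p = 0.0185). The call was lost without young replicate 1 (edgeR adjusted p = 0.179), without young replicate 2 (0.191) and with the mixed clusters kept (0.0552). A sum weighs cells by their depth, and the median mesangial cell had 3850 and 3390 UMIs (young) against 4666 and 7201 (aged). The share of mesangial cells with an Igf1r UMI was 30.0% and 28.0% (young) against 43.7% and 55.5% (aged), but 5.59% and 8.88% against 7.63% and 10.4% when every cell was thinned to 1000 UMIs, so the thinned shares overlapped.

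In the other classes tested, edgeR called no change of Igf1r. Among these classes it was highest in cluster 15, at 253, 345, 237 and 254 CPM in young replicates 1 and 2 and aged replicates 1 and 2, above every library of the other tested classes. The 57 neutrophils of aged replicate 1 had 278 CPM, on 22 UMIs, within the range of cluster 15. Podocytes followed at 107, 145, 145 and 142, with a log2 change of 0.26 ± 0.14 (edgeR adjusted p = 0.357), and overlapped with mesangial cells and with smooth muscle and renin cells (56.9, 86.4, 57.0 and 125). Endothelial cells had 68.3, 85.8, 67.1 and 64.2 CPM, so the aged libraries lay below the young ones, with a log2 change of -0.10 ± 0.14 (edgeR adjusted p = 0.779). Within the 6 endothelial clusters the aged libraries lay below the young ones in 3, above them in 1 and overlapped in the others. Monocyte or dendritic cells, which were not tested, had 7.59 ± 2.83 CPM (young) and 14.5 ± 0.708 (aged; SD, n = 2), with both aged libraries above both young ones, on 5 young and 47 aged UMIs. Aged macrophages had 8.98 and 8.18 CPM. The difference between the age effects of mesangial and endothelial cells was itself called, at 0.83 on the log2 scale (edgeR interaction adjusted p = 0.00549), and was lost without young replicate 1 (0.0746) or young replicate 2 (0.207).

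Igf2r, the scavenging receptor, was called in none of the 3 classes where it was tested by edgeR, and only its mesangial effect had an unadjusted p under 0.05 (0.0476). DESeq2 called none either. Podocytes had 30.9, 46.3, 39.6 and 35.6 CPM and mesangial cells 38.0, 41.8, 27.1 and 27.8, in the same library order, so that the mesangial groups did not overlap. The mesangial log2 change was -0.43 ± 0.19 (edgeR adjusted p = 0.217). Endothelial cells had 22.1, 27.3, 22.2 and 21.7, with a log2 change of -0.03 ± 0.17 (edgeR adjusted p = 0.957). The podocyte change was 0.07 ± 0.17 (edgeR adjusted p = 0.897). In 2 classes where Igf2r was not tested the aged libraries lay above the young ones, opposite to mesangial cells. Smooth muscle and renin cells had 19.0, 17.3, 33.2 and 46.0 CPM, on 4, 4, 7 and 7 UMIs, and monocyte or dendritic cells 2.79, 6.39, 18.9 and 41.1, on 1, 2, 27 and 74 UMIs.

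Igfbp5, a binding protein that also attaches to extracellular matrix, was carried by endothelial and mesangial cells, whose levels overlapped. In endothelial cells it was at 3997 and 4949 CPM (young) against 2638 and 2634 (aged). The young mean was 4473 ± 673 (SD, n = 2) and the aged mean 2636 ± 2.77 (SD, n = 2). The log2 change was -0.63 ± 0.18 (SE), 1.55-fold lower in aged cells (edgeR adjusted p = 0.041). The change was between -0.72 and -0.53 under all 11 other settings, and called under 6 of them. The call was lost without aged replicate 1 (edgeR adjusted p = 0.467), without aged replicate 2 (0.377), with mixed cells kept (0.0519), with cells named one by one (0.0754) and among cells with a UMI of Ehd3 (0.0872), a marker of glomerular capillary endothelium. Fewer aged cells had a UMI of it: 83.6% and 86.8% of young and 69.2% and 72.8% of aged endothelial cells, and 79.7% and 83.8% against 62.3% and 63.5% when each cell was thinned to 1000 UMIs.

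Igfbp5 was also read within each of the 6 endothelial clusters, whose cell numbers differed between the ages. Cluster 5, led by Cyp26b1 and Kdr with Ehd3 also among its top genes, held 1279 young and 454 aged cells. Cluster 0, led by Sele and Plaur, held 539 and 3842, and cluster 1 held 1059 and 2698. Clusters 6, 8 and 12 held 267 and 1477, 426 and 965, and 122 and 303. In all 6 clusters both aged libraries lay below both young ones. The mean went from 5574 ± 810 to 4220 ± 359 CPM (SD, n = 2) in cluster 5, from 5274 ± 793 to 3248 ± 0.212 in cluster 1, from 5218 ± 849 to 3199 ± 2.72 in cluster 0 and from 5412 ± 1002 to 3583 ± 405 in cluster 12. The remaining clusters had less of it, 699 ± 222 and 327 ± 104 CPM in cluster 8 and 158 ± 53.0 and 63.9 ± 26.9 in cluster 6. Igfbp5 was thus higher in clusters 0, 1, 5 and 12 than in clusters 6 and 8. These clusters were made from the same cells, and the values within them carry no test.

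**Figure D4:**
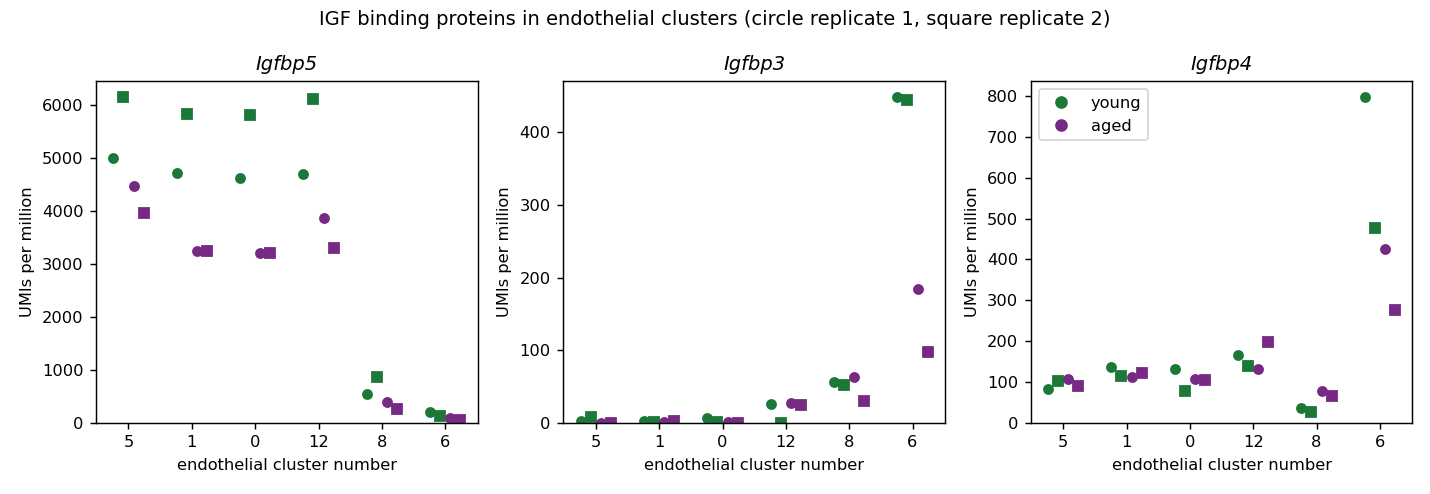
CPM of Igfbp5, Igfbp3 and Igfbp4 (y axes, from 0) in the 6 endothelial clusters (x axis), 1 point per library (green young, purple aged, circle replicate 1, square replicate 2). In each cluster the purple Igfbp5 points lie below the green ones, and cluster 6 has the least Igfbp5 and the most Igfbp3 and Igfbp4.

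Outside the endothelium, Igfbp5 was at 4359 and 5145 CPM in young and 3625 and 2963 in aged mesangial cells, with no overlap. The log2 change there was -0.42 ± 0.19 (SE) and was not called (edgeR adjusted p = 0.222). Smooth muscle and renin cells had 1114 and 1088 against 1406 and 1092, with a log2 change of 0.22 ± 0.19 (edgeR adjusted p = 0.685). Podocytes had 13.4, 26.3, 20.1 and 11.5 CPM, between 0.307% and 0.555% of the mesangial level of the same library, and a log2 change of -0.16 ± 0.25 (edgeR adjusted p = 0.834).

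Igfbp3, the main IGF carrier of the blood, was concentrated in cluster 6, an endothelial cluster whose leading genes were Esm1, Fabp4, Tgfb2, Slc45a4 and Igfbp3 itself. Cluster 6 had 448 and 445 CPM (young) against 184 and 97.5 (aged), on 62 to 938 cells. Because Igfbp3 helped to define that cluster and its cells went from 267 to 1477, these values are a description. Cluster 8 had 56.7 and 51.5 (young) against 62.6 and 30.6 (aged), which overlap. Over all endothelial cells Igfbp3 was at 38.6, 29.7, 28.7 and 14.5 CPM, and the log2 change of -0.56 ± 0.23 (SE) was not called (edgeR adjusted p = 0.18).

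Mesangial Igfbp3 had 2 and 1 UMIs in the young libraries and 25 and 122 UMIs in the aged ones, spread over 17 and 63 cells. These counts are 1.21 and 0.971 against 4.78 and 20.2 CPM. The aged libraries lay above the young ones and also far apart from each other, and the log2 change of 3.55 ± 0.98 (SE) was not called (edgeR adjusted p = 0.0621). Under 10 other settings it ranged from 0.67 to 4.20 and was called in 5. The summed level of the 8 endothelial markers in mesangial cells moved with it, from 6.34% and 6.31% of the endothelial level in the young to 8.49% and 9.95% in the aged libraries. Mesangial Igfbp3 was 3.13%, 3.27%, 16.7% and 139.5% of the endothelial Igfbp3 level of the same library. Endothelial cluster 6 of aged replicate 2 stood at 97.5 CPM, above the mesangial 20.2. The part of endothelial RNA in the mesangial counts was not tested. Smooth muscle and renin cells had no Igfbp3 UMI in any library, and a count of 0 allows up to 13.0 to 19.7 CPM there.

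Igfbp4, a binding protein that inhibits IGF action until the protease PAPP-A cuts it, was highest in mesangial cells. Mesangial cells had 1242 and 1094 CPM (young) against 1518 and 1491 (aged), with no overlap, and 89.1% to 96.2% of them had a UMI. On the log2 scale the change was 0.46 ± 0.16 (SE) and was not called (edgeR adjusted p = 0.114). Under 11 other settings it ranged from 0.37 to 0.87 and was called in 4. The mesangial sums held 290, 193, 714 and 553 cells by library, but 442, 2072, 774 and 656 with mixed clusters kept. Cells without a class carried 45.1%, 61.2%, 5.57% and 13.4% of all Igfbp4 UMIs by library, so the young mesangial levels leave out a larger part of them. Endothelial cells had 147, 107, 143 and 124 CPM, with a log2 change of 0.18 ± 0.16 (edgeR adjusted p = 0.625). Within them, cluster 6 was highest, with 798 and 477 (young) against 425 and 276 (aged), while cluster 8 had 36.9 and 26.6 against 76.9 and 65.7. Podocytes were at 2.06, 6.05, 1.77 and 2.01 CPM and cluster 15 at 46.0, 27.6, 32.6 and 16.0. Smooth muscle and renin cells had 2, 2, 7 and 31 UMIs (9.48, 8.64, 33.2 and 204 CPM), of which 71.0% in aged replicate 2 lay in a single cell, and the gene did not enter the test there. Mesangial markers in those cells stood at 6.88%, 8.78%, 23.2% and 23.8% of the mesangial level. Their part in the Igfbp4 counts was not tested.

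Igfbp7 was abundant in mesangial cells, podocytes, cluster 15 and smooth muscle and renin cells, but not in the endothelium. Mesangial cells had 10181 and 9669 CPM (young) against 12391 and 10933 (aged). Podocytes had 7234 and 6669 against 7782 and 7730, and cluster 15 had 8066 and 8034 against 8186 and 6880, so those classes overlapped with each other and lay below every mesangial sum. Smooth muscle and renin cells followed at 3247 and 2707 against 4236 and 4381. At least 99.9% of the cells of these 4 classes had a UMI of it. Cells without a class carried 19.4%, 50.7%, 5.59% and 12.35% of all Igfbp7 UMIs by library. Endothelial cells had 40.9, 95.7, 52.6 and 38.8 CPM, between 0.355% and 0.99% of the mesangial level. Of the endothelial clusters, cluster 8 was highest in each library, at 145, 256, 156 and 93.2 CPM. In the sums over all endothelial cells the podocyte markers, Podxl among them, stood at 3.21% to 5.45% of the podocyte level. Their part in endothelial Igfbp7 was not tested.

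No class showed a called change of Igfbp7, although aged lay above young in both libraries in mesangial cells, podocytes and smooth muscle and renin cells. The log2 changes there were 0.33 ± 0.20 (edgeR adjusted p = 0.361), 0.21 ± 0.16 (edgeR adjusted p = 0.575) and 0.56 ± 0.20 (edgeR adjusted p = 0.172). Endothelial Igfbp7 had a log2 change of -0.41 ± 0.23 (edgeR adjusted p = 0.354), and cluster 15 one of -0.09 ± 0.15 (edgeR adjusted p = 0.828).

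Igfbp2 and Igfbp6, the latter a binding protein with a preference for IGF2, were carried by cluster 15. Igfbp2, whose promoter is shown above, was at 350 and 110 CPM (young) against 587 and 651 (aged), on 61, 24, 144 and 244 UMIs. The groups did not overlap, and young replicate 2 lay well below young replicate 1. Igfbp2 was among the genes that led the cluster, so its level there against other classes is a description. Its log2 change was 1.48 ± 0.34 (SE), 2.79-fold higher in aged cells (edgeR adjusted p = 0.0268). Only 14, 15, 10 and 15 of the 33, 90, 43 and 42 cells had a UMI of Igfbp2. The richest cell held 36.1%, 12.5%, 28.5% and 37.7% of the UMIs. The change was 2.54 without young replicate 1, 0.83 without young replicate 2 (edgeR adjusted p = 0.0636) and 0.84 with cells named one by one (edgeR adjusted p = 0.496), and the DESeq2 adjusted p was 0.906. When cells were thinned to equal depth, 24.24% and 10.71% of young and 13.95% and 21.43% of aged cluster 15 cells had an Igfbp2 UMI. These thinned shares overlapped and rested on 8, 6, 6 and 9 cells. In other classes with at least 20 cells Igfbp2 was at or under 2.12 CPM, apart from 3 UMIs in a single tubule cell. Cells without a class held 4.69%, 26.7%, 7.98% and 57.9% of all Igfbp2 UMIs of the 4 libraries.

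Igfbp6 in cluster 15 fell from 609 and 418 CPM in the young to 163 and 163 in the aged libraries. All 4 sums rested on 40 to 106 UMIs in 20 to 30 cells, and the richest cell held 10.0% to 22.6% of them. The log2 change was -1.64 ± 0.24 (SE), 3.11-fold lower (edgeR adjusted p = 0.00313), and was called under 9 of 10 other settings. With cells named one by one it was -1.95 and not called (edgeR adjusted p = 0.211). Cluster 15 held 77.4%, 50.6%, 46.5% and 41.2% of all Igfbp6 UMIs of the 4 libraries. Cells without a class held 2.92%, 33.9%, 25.6% and 45.3% of them.

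In podocytes Igfbp6 was at 3.22 and 6.66 CPM (young) against 0.883 and 1.61 (aged), on 25, 22, 5 and 8 UMIs. The aged libraries lay below the young ones, and in young replicate 2 a single cell held 63.6% of the UMIs. On the log2 scale the change was -1.81 ± 0.50 (SE), 3.51-fold lower (edgeR adjusted p = 0.0244). It was called under 5 of 11 other settings, and among those that lost it were DESeq2 (adjusted p = 0.258), the edgeR fit without young replicate 2 (adjusted p = 0.148), the edgeR fit without aged replicate 1 (0.443), the edgeR fit without aged replicate 2 (0.0715) and the edgeR fit with mixed clusters kept (0.227). The podocyte level was 0.528%, 1.59%, 0.541% and 0.989% of that in cluster 15 of the same library. The summed level of the 8 parietal markers in podocytes was 203, 229, 183 and 175.5 CPM, with Pax2 and Lad1 at 0 in all 4 sums and Wfdc2 also at 0 in young replicate 2, and their part in the Igfbp6 result was not tested.

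Igfbp5 in cluster 15 fell as its neighbour Igfbp2 rose, but on few cells. It had 32 and 42 UMIs (young) against 15 and 0 (aged), or 184, 193, 61.2 and 0 CPM. In young replicate 1 a single cell held 96.9% of the UMIs and in aged replicate 1 a single cell held 93.3%, while in young replicate 2 the UMIs were spread over 31 of 90 cells. Its log2 change was -2.89 ± 0.62 (SE) (edgeR adjusted p = 0.0203), and it was -0.31 with cells named one by one (edgeR adjusted p = 0.88). Leaving out aged replicate 1 gave -8.57 and leaving out aged replicate 2 gave -1.59. The DESeq2 value was -2.64 with an adjusted p of 1. Endothelial markers in cluster 15 moved with it, at 4.38%, 4.14%, 0.968% and 0.459% of the endothelial level. Of the 8 markers, 8 were detected in each young sum and 7 in each aged sum (Tie1 was at 0 in aged replicate 1 and Kdr in aged replicate 2). Their part in the result was not tested.

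**Figure D5:**
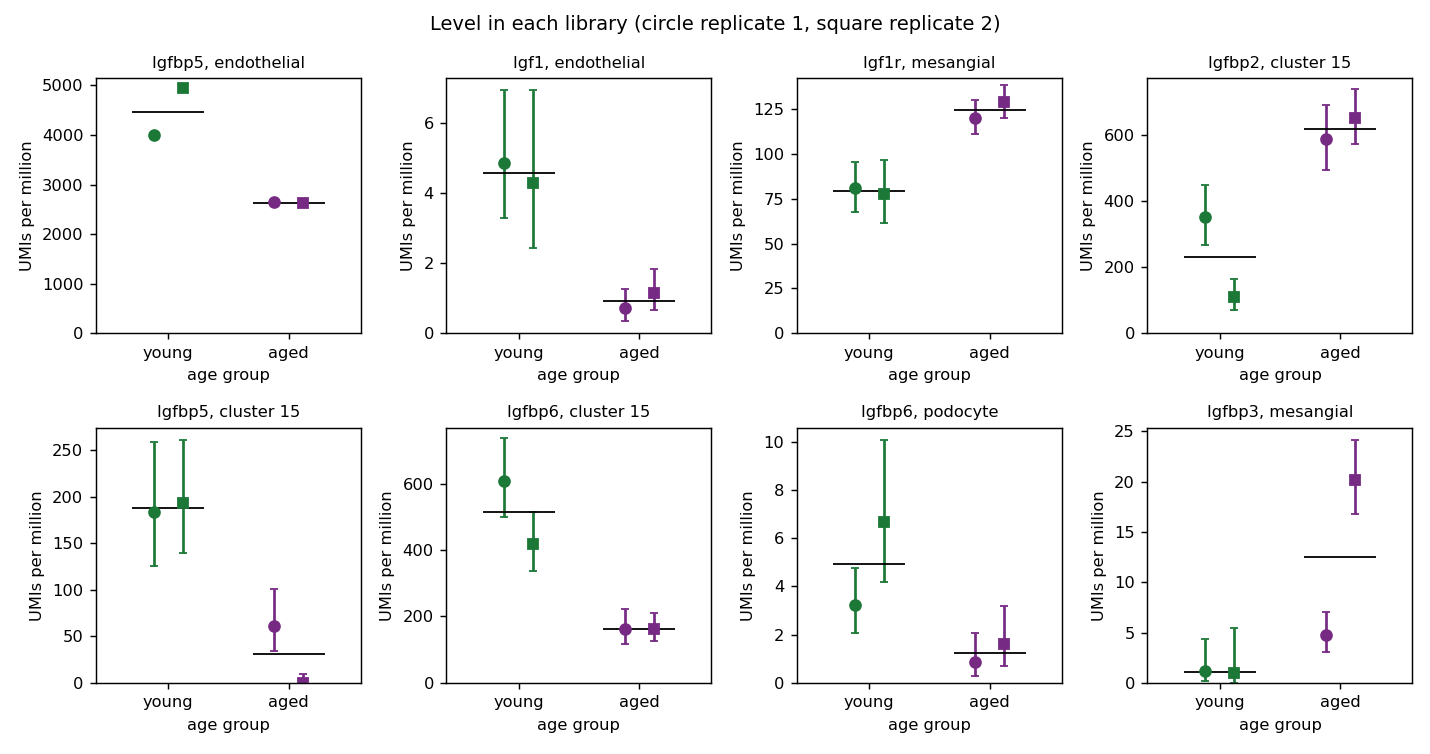
CPM (y axes, from 0) of the 7 called gene and class pairs and of Igfbp3 in mesangial cells, which was not called, by age group (x axis). Points are libraries with exact 95% Poisson intervals for counting error only, and lines are group means. In every panel the aged points lie on 1 side of the young ones, and aged replicate 2 of Igfbp3 is at 20.2 against 4.78 in aged replicate 1.

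The age effects were then compared between the 4 classes of podocytes, endothelial cells, mesangial cells and cluster 15, in 6 pairs. Of 48 tests of the members, 7 were called by edgeR's interaction test. Igfbp5 fell further in cluster 15 than in podocytes, endothelial and mesangial cells, and the Igfbp3 effect in mesangial cells lay above that in podocytes and in endothelial cells. The 3 Igfbp5 calls were lost without aged replicate 2 (edgeR adjusted p = 0.0909 against podocytes, 0.841 against endothelial and 0.0535 against mesangial cells). The Igfbp3 calls were lost without young replicate 2 (edgeR adjusted p = 0.916 against podocytes, 0.3001 against endothelial cells), the first also without aged replicate 2 (0.0716) and the second without young replicate 1 (0.559). Igf1 differed between endothelial cells and cluster 15 at an edgeR adjusted p of 0.0482, which was lost without each library in turn (0.0583 to 0.585). Beside the share of all genes called in each pair, 0 of 8 members were called between podocytes and endothelial cells (5.73% of all genes; 4 had an unadjusted p under 0.05), 1 of 7 between podocytes and mesangial cells (4.3%), 1 of 8 between podocytes and cluster 15 (1.29%), 2 of 7 between endothelial and mesangial cells (3.39%), 2 of 9 between endothelial cells and cluster 15 (1.3%) and 1 of 9 between mesangial cells and cluster 15 (1.39%).

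The rest of the pathway was read from 6 lists of 64 genes. They were chosen for their roles but with earlier results of these data known, so the shares called are a description. In podocytes 8 rose and 1 fell of 50 tested (18%, beside 6.15% of all genes), and in endothelial cells 5 rose of 55 (9.09%, beside 6.6%). In mesangial cells 3 rose of 53 (5.66%, beside 6.17%), and in cluster 15 1 rose and 1 fell of 27 (7.41%, beside 2.78%). In smooth muscle and renin cells edgeR called none of 24 (beside 2.31%), and 5 had an unadjusted p under 0.05. The podocyte median over the lists was -0.01 against 0.00 over all genes tested.

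In podocytes 1 of the 4 genes of the growth hormone list was called (Cish), and of 11 tested inhibitors of the pathway 2 rose and 1 fell. Socs2, a suppressor of the growth hormone receptor, went from 24.8 and 29.1 to 58.3 and 57.8 CPM (log2 1.18 ± 0.15, edgeR adjusted p = 1.68e-06). Cish, another cytokine-inducible suppressor, went from 16.3 and 22.7 to 47.7 and 40.1 (log2 1.28 ± 0.17, edgeR adjusted p = 4.32e-06). Socs1, the suppressor best known from interferon signalling, fell from 19.2 and 18.5 to 7.77 and 5.64 (log2 -1.43 ± 0.23, edgeR adjusted p = 6.27e-05). Klf15, a Krüppel-like factor placed in the list of FOXO factors and targets, had the largest change of the lists in podocytes, from 4.76 and 5.14 to 25.8 and 22.4 CPM (log2 2.34 ± 0.23, edgeR adjusted p = 1.15e-08). In mesangial cells it also rose, from 1.81 and 1.94 to 6.12 and 8.45 (log2 2.05 ± 0.53, edgeR adjusted p = 0.0487).

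Downstream of the receptor, Irs2, the docking protein of the insulin and IGF1 receptors, rose in podocytes (82.1 and 126 to 160 and 168 CPM, log2 0.74) and in endothelial cells (69.6 and 70.3 to 96.4 and 91.1, log2 0.54). Ddit4, an inhibitor of mTOR complex 1, rose in podocytes (log2 1.05) and in endothelial cells (log2 0.60). The PI3 kinase subunit Pik3cb rose in podocytes (log2 0.66). In endothelial cells Jak2, the kinase of the growth hormone receptor, rose from 37.5 and 46.0 to 84.6 and 58.8 (log2 0.92), and the integrin subunit Itgb3 from 5.52 and 9.63 to 20.3 and 15.2 (log2 1.42). Of the proteases, the sheddase Adam9 rose in podocytes (log2 0.85) and endothelial cells (log2 0.77), and Adamts1, a secreted metalloprotease, in podocytes (log2 1.17) and in cluster 15, from 799 and 809 to 2096 and 1834 CPM (log2 1.29). In mesangial cells the lysosomal protease Ctsd (log2 0.64) and the pseudokinase Trib1 (log2 0.98) rose. Socs3 fell in cluster 15, from 253 and 345 to 126 and 142 (log2 -1.15). Of 12 genes induced by tissue dissociation, 5 rose in podocytes, 1 rose in endothelial cells, 3 fell in mesangial cells, 6 fell in cluster 15 and 1 fell in smooth muscle and renin cells, and their part in the results above was not tested.

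The genes whose pattern was most like that of a member were found by Pearson's r of log2(CPM + 1) over 38 class sums of 11 classes. These sums share libraries and depth, and the values are a description. Igfbp5 was closest to Rapgef5 (r = 0.94) and to the endothelial junction gene Esam (0.91), and Igfbp7 to Hoxc9 and Hoxc6 (both 0.94). Igfbp2 was closest to Wnt16 and Osr2 (both 0.97), and Igfbp6 to Cst12 (0.95) and Dkk3 (0.90), Dkk3 being among the markers that named cluster 15. The genes closest to Igfbp4 were Ptbp1 and Add2 (both 0.79). Of the receptors and the ligand, Igf1r was closest to Wwtr1 and Ndrg1 (both 0.89), Igf1 to Fam20c and Cadm1 (both 0.82), and Igf2r to Smim8 (0.67) and Trp53inp1 (0.64). Igfbp3 was below the mean of 10 CPM that this comparison required.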

How the data were processed

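The deposited matrices hold raw UMI counts per gene and cell, not normalized. Reads were aligned to GRCm38 per the submitters' processing notes. The labels' protocols name Cell Ranger 3.1.0 and the file headers 6.0.1, and neither could be preferred. Of 52636 gene IDs, 52403 were found in GENCODE vM21.

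Cells with at least 500 genes and at most 20% mitochondrial UMIs were kept. Scrublet's automatic threshold marked 125 barcodes (0.418%), so the highest scores were removed at 0.8% per 1000 barcodes instead, 1876 in all (6.28%). Cells were clustered with scanpy 1.11.5 and leidenalg 0.10.2 (2000 variable genes, 30 components, 15 neighbours, resolution 1), without integration. Of 22 clusters, 18 were named by their highest marker level (at least 0.35 of the best cluster, 3 detected markers), and 4 with an unrelated class at 0.25 of the best class were left out, as were 1109 mixed cells. These thresholds were set after the data were seen.

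UMIs were summed per class and library (at least 20 cells) and tested with edgeR 4.0.16 in R 4.3.3 (TMM, default filter, age as the only term, Benjamini-Hochberg over all genes of the class). DESeq2 1.42.0 was an alternative, as were no filter, each library left out, a replicate block and other choices of cells (mixed cells or mixed clusters kept, each cell named one by one from its own marker UMIs, cells of at least 1000 UMIs, or endothelial cells with a UMI of Ehd3). Interactions between classes used the library as a block. Intervals are exact and cover counting error only. CPM are unadjusted shares of the class sum, while log2 changes include TMM. The scripts were tested on simulated counts. All 9 members are named, with list genes called in any tested class and the 2 genes closest to each member. The members and lists were chosen with earlier results of these data known.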

Additional observations from a re-analysis of the deposited data

Results flagged for a closer look

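These 7 differences between the age effects of 2 classes stand here because edgeR's interaction test called them, and each is a log2 difference tested with 5 other settings (no filter on low counts, and each library left out). For Igfbp5, cluster 15 minus endothelial cells gave -2.22 (edgeR adjusted p = 1.43e-05), cluster 15 minus mesangial cells -2.41 (0.0117) and cluster 15 minus podocytes -2.55 (0.00453). Each was called under 4 of the 5 settings and lost without aged replicate 2, where the differences were -0.92, -1.30 and -1.65, and aged replicate 2 had no Igfbp5 UMI in cluster 15.

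For Igfbp3, mesangial cells minus endothelial cells gave 4.20 (edgeR adjusted p = 0.0213) and mesangial cells minus podocytes 5.75 (0.00244), each called under 3 of the 5 settings. The first was lost without young replicate 1 (0.559) or young replicate 2 (0.3001), and the second without young replicate 2 or aged replicate 2 (0.0716). The podocyte sums held 0, 15, 2 and 1 UMIs of Igfbp3, 73.3% of the 15 in a single cell of young replicate 2, and without that library the second difference was -0.33 (edgeR adjusted p = 0.916). For Igf1r, mesangial minus endothelial cells gave 0.83 (edgeR adjusted p = 0.00549), called under 3 of the 5 settings and lost without young replicate 1 (0.0746) or young replicate 2 (0.207). For Igf1, cluster 15 minus endothelial cells gave 2.78 (edgeR adjusted p = 0.0482), called under none of the 5 settings (0.0583 to 0.585), on 4 to 14 UMIs per sum of cluster 15.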

How the results depend on the processing

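Of 288 age effects of single members under other settings, 232 kept their direction and side of the threshold, 22 passed it, 20 lost it and 14 changed sign. No pair of gene and class that was called in the tests above changed sign. With a library left out, sign changes were seen, over the 4 such fits, for Igf2r (-0.20 to 0.30) and Igfbp5 (-0.62 to 0.27, and 0.15 without aged replicate 2) in podocytes, for Igf1r (-0.20 to 0.016), Igf2r (-0.13 to 0.067), Igfbp4 (-0.071 to 0.50) and Igfbp7 (-0.88 to 0.23) in endothelial cells (these 4 without young replicate 2), for Igfbp7 in cluster 15 (-0.17 to 0.052) and for Igf1r in smooth muscle and renin cells (-0.29 to 0.85). With mixed cells kept they were Igfbp5 in podocytes (0.072) and in smooth muscle and renin cells (-0.0036), and Igfbp7 in cluster 15 (0.003). With no filter it was Igfbp7 in cluster 15 (0.019), and with cells named one by one Igfbp5 in smooth muscle and renin cells (-0.38). The cause was not tested.

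The number of members called in podocytes (1) was 0 with DESeq2, 0 with cells named one by one, 0 with mixed clusters kept, and 0 to 4 with a library left out. In endothelial cells (2) it was 1 with mixed cells kept, 1 with cells named one by one, 1 among cells with a UMI of Ehd3, and 1 to 3 with a library left out. In mesangial cells (1) it was 2 with DESeq2, 3 with no filter, 2 with mixed cells kept, 0 with mixed clusters kept, and 0 to 4 with a library left out. In cluster 15 (3) it was 1 with DESeq2, 0 with cells named one by one, and 2 to 3 with a library left out. In smooth muscle and renin cells (0) it was 1 with no filter, 1 with mixed cells kept, and 0 to 2 with a library left out. Interactions (7) were 11 with no filter and 3 to 11 with a library left out, and were not run under the settings that change the cells. Keeping mixed clusters was chosen after seeing the data. With 1 library left in a group, that library is assumed to vary like the others. Over all genes, the calls ranged from 71 to 1317 in podocytes (671 as reported), 388 to 1550 in endothelial cells (862), 71 to 1895 in mesangial cells (678), 0 to 246 in cluster 15 (118) and 20 to 113 in smooth muscle and renin cells (80).

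Nothing in the titles pairs libraries of the same number beyond that number. Their deviations from the group means correlated at 0.00778, 0.0709, 0.0377, 0.0386 and -0.00454 over the genes of podocytes, endothelial cells, mesangial cells, cluster 15 and smooth muscle and renin cells. With 2 libraries per group these correlations cannot show whether libraries of the same number shared a batch. With a replicate block the members called were 1 in podocytes, 3 in endothelial cells, 4 in mesangial cells, 3 in cluster 15 and 0 in smooth muscle and renin cells. Depth limits endothelial Igf1 (11 to 30 UMIs per library), podocyte Igfbp6 (5 to 25) and Igfbp5 in cluster 15 (0 to 42).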
